A study of Mus musculus with 18 samples.

Results

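The 8 genes described here set how strongly translation is braked through eIF2-alpha and the cap. They are the 4 eIF2-alpha kinases Eif2ak1 (HRI), Eif2ak2 (PKR), Eif2ak3 (PERK) and Eif2ak4 (GCN2), the 2 phosphatase regulatory subunits Ppp1r15a (GADD34) and Ppp1r15b (CReP), the substrate Eif2s1 (eIF2-alpha) and Eif4ebp1 (4E-BP1). They were chosen by name, and every array probe whose transcript accession belongs to one of these symbols was taken. This gave 9 probes of 39429 on the array, 2 for Eif2s1 and 1 for each of the other 7 genes, and 8 of the 25374 genes tested, where a probe with no symbol counts as a gene of its own. All 9 probes gave retinal signal well above background on all 17 arrays.

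Each kinase phosphorylates eIF2-alpha in answer to a different stress: HRI to heme shortage and mitochondrial stress, PKR to double-stranded RNA, PERK to unfolded protein in the endoplasmic reticulum, and GCN2 to uncharged tRNA and stalled ribosomes. Phosphorylated eIF2 inhibits its own exchange factor, eIF2B, so that most initiation falls while some messages, Atf4 among them, are translated more. GADD34 and CReP bring protein phosphatase 1 to eIF2-alpha and reverse the mark, GADD34 when induced by stress and CReP at all times, and 4E-BP1 acts at a separate step by keeping eIF4E from the cap-binding complex. In neurons with injured axons this integrated stress response is one arm of the programme that runs downstream of dual leucine zipper kinase (DLK, gene Map3k12). The arrays measured RNA, so neither kinase activity nor phosphorylation of eIF2-alpha was observed.

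RNA came from whole mouse retina, with the uninjured eye as the control for the crushed one. Every animal carried loxP-flanked DLK alleles and received tamoxifen at 10 to 12 weeks of age, and Cre-positive animals also carried the Cre-ERT transgene under the CAG promoter, which is active in many tissues and not particular to ganglion cells. The groups were Cre-negative uncrushed (n = 4), Cre-negative crushed (n = 3), Cre-positive uncrushed (n = 5) and Cre-positive crushed (n = 5), with crush 3 days before collection. One further array had labels that disagreed on crush and was left out of the comparisons. The labels do not say whether an array is 1 retina or a pool, so the tests measure the spread between arrays.

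Retinal RNA was in the Cy5 channel and a universal mouse reference RNA in the Cy3 channel, and each value below is a log2 ratio of Cy5 over Cy3 after background correction and loess normalization. Levels are therefore relative to that reference and are not compared between genes. Arrays of a group correlated at r of 0.982 to 0.996 across genes, 68% to 76.2% of probes were above background in Cy5, and no spot was saturated. Map3k12 lay between 2.21 and 2.61 on the Cre-negative arrays and between 1.77 and 2.34 on the Cre-positive arrays, a mean Cre effect of -0.45 (SE 0.08, limma adjusted p = 0.00751). Taken singly the effect was -0.43 in uncrushed (adjusted p = 0.881) and -0.47 in crushed retinas (0.0596), and the remaining signal was still well above background. Retinal ganglion cell markers were well above background on every array for 11 of the 12 genes listed, the exception being Pou4f3. Cornea, iris and ciliary body markers were highest on Cre-positive uncrushed replicate 4 (mean log2 deviation from the average array 2.65, next array 0.44) and lens markers on Cre-positive crushed replicate 5 (1.28), so counts are also given without both arrays. Throughout, a gene is said to rise or fall where the limma adjusted p, over all genes of that contrast, was under 0.05.

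Promoter letters were available for 6 of the 8 genes, and the stretches below are shown because they hold matches, on either strand, to motifs that factors of these pathways recognise. They are RefSeq sequences of GRCm38.p6, written 5′ to 3′ on the gene's strand, with motif matches in capitals. The first is the whole 250 bases before the Ppp1r15a start, chr7:45526269-45526518 on the minus strand. It holds the cAMP response element TGACGTCA 12 bases before the start, which is in 1.79% of 32851 promoter windows of 300 bases, and further out GAAAGGGAAA, a match to the interferon-stimulated response element (GAAA, any 2 bases, GAAA), which is in 3.44% of windows.
Ppp1r15a: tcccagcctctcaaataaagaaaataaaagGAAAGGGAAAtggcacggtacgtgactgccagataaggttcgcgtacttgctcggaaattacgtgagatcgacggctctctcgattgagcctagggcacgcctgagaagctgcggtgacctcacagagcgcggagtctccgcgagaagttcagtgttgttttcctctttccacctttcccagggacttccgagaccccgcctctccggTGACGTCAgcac
The next stretches are 30 bases each around a single match. Eif2ak2 (chr17:78882535-78882564, minus strand) and Eif2s1 (chr12:78861850-78861879, plus strand) each hold an interferon-stimulated response element, 18 bases after and 212 bases before the start. Eif2ak3 (chr6:70844320-70844349, plus strand) holds an AP-1 element, TGANTCA, 185 bases before its start, a motif found in 7.81% of windows.
Eif2ak2: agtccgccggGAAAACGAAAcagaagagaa
Eif2s1: cctggagcaaGAAACAGAAActtacctctc
Eif2ak3: ggaactgaaaTGATTCAccaatcgcctaag
The C/EBP-ATF element TGATGNAA (3.97% of windows) and the ER stress element (CCAAT, any 9 bases, CCACG, 0.119% of windows) were in none of these windows, and Eif2ak1 and Eif2ak4 held no match to any of the 5 motifs. A match is a run of letters, and whether any factor binds there was not measured.

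After crush in Cre-negative retinas, Eif4ebp1 was the only one of the 8 genes that rose, by 0.56 on the log2 scale, a 1.48-fold change. That is 1 of 8 genes, against 2.15% of all genes that passed the test in this contrast, 1.34% that rose and 0.808% that fell. The other 7 had differences of -0.08 to 0.52. In Cre-positive retinas none of the 8 rose or fell by limma, against 0.753% of all genes (0.666% rose and 0.0867% fell), and 1 of them, Eif2ak3, was under an unadjusted p of 0.05, as were 9.52% of all genes. In Cre-negative retinas 5 of the 8 were under it (Eif2ak2, Eif2ak3, Ppp1r15a, Ppp1r15b and Eif4ebp1), as were 13.3% of all genes.

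**Figure D1:**
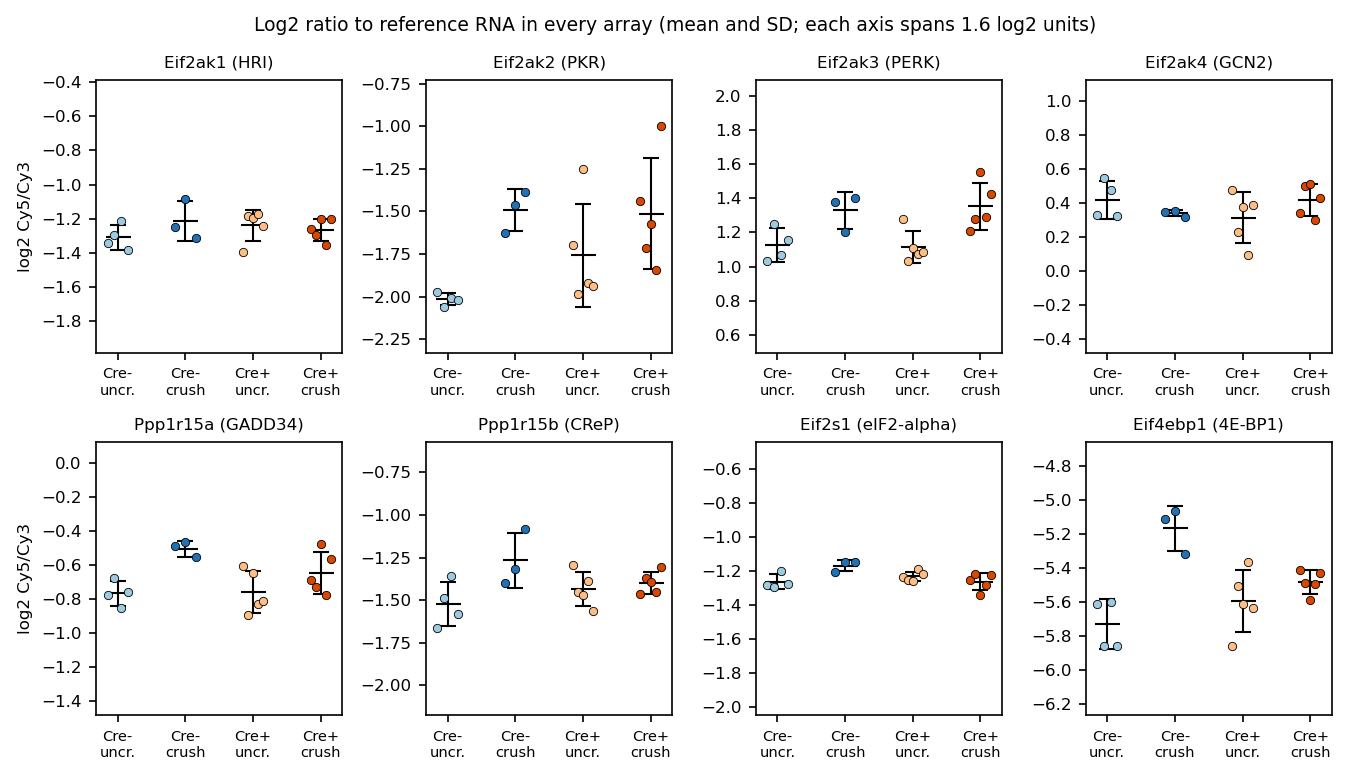
Log2 Cy5/Cy3 of each gene on each of the 17 arrays, 1 panel per gene, with the group mean and SD as bars. For Eif4ebp1 the 3 Cre-negative crushed arrays (-5.32 to -5.07) lie above all 4 Cre-negative uncrushed arrays (-5.86 to -5.60), as for 8.8% of all genes. For Eif2s1, drawn from its brighter probe, all groups lie within a narrow band.

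Among the kinases, Eif2ak3 was the most evenly higher after crush in both genotypes. Its log2 ratios were 1.03, 1.25, 1.07 and 1.15 in Cre-negative uncrushed and 1.38, 1.20 and 1.40 in Cre-negative crushed retinas. They were 1.28, 1.03, 1.11, 1.07 and 1.09 in Cre-positive uncrushed and 1.21, 1.28, 1.56, 1.29 and 1.43 in Cre-positive crushed retinas. In each genotype 1 uncrushed array reached into the crushed range, and otherwise the crushed arrays were the higher ones. The difference was 0.20 (SE 0.08, adjusted p = 0.292) in Cre-negative and 0.24 (SE 0.07, adjusted p = 0.17) in Cre-positive retinas, so neither passed the test alone. Averaged over both genotypes, a contrast added after these values were seen, Eif2ak3 rose by 0.22 (SE 0.05, 95% interval 0.10 to 0.34, adjusted p = 0.0292), a 1.16-fold change, where 3.57% of all genes passed, 2.61% higher and 0.962% lower. Of the 8 genes, 2 passed in this averaged contrast, Eif2ak3 and Eif4ebp1. The difference between the genotypes' responses was 0.04, with a 95% interval of -0.20 to 0.27. Within slides the crushed mean was higher on all 3 slides that carried both Cre-negative groups (0.14 to 0.22). The same held on all 4 that carried both Cre-positive groups (0.15 to 0.33), 1 of them with several arrays per group. These are the arrays of the test itself, and only 1 uncrushed array per genotype reached into the crushed range. Most of these signs were therefore fixed and are no further check, and the share of all genes with this pattern was not computed. The averaged call rested on small margins. It was lost when any 1 of 8 arrays was left out (Cre-negative uncrushed replicates 1 and 3, Cre-negative crushed replicates 1 and 3, Cre-positive uncrushed replicates 2, 4 and 5, Cre-positive crushed replicate 5; adjusted p 0.05 to 0.103), without the cornea-high and lens-high arrays (0.0884), with scanner-processed signals (0.255), with Cy5 alone (0.0833) and with the disagreeing array counted as uncrushed (0.0729).

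Eif2ak2 showed the widest crush difference in Cre-negative retinas among the kinases and the widest range over the arrays. The 4 Cre-negative uncrushed arrays read -1.97, -2.06, -2.01 and -2.02, and the 3 crushed arrays -1.63, -1.46 and -1.38. These groups did not overlap, as was true of 8.8% of all genes in that direction (6.61% in the other), and the difference was 0.52 (SE 0.17, adjusted p = 0.154). In Cre-positive retinas the groups overlapped for all 8 genes, where 1.51% of all genes had every crushed array higher and 0.56% every one lower. The Eif2ak2 values were -1.70, -1.98, -1.25, -1.92 and -1.94 uncrushed against -1.44, -1.71, -1.57, -1.85 and -1.0 crushed, a difference of 0.24 (SE 0.14, adjusted p = 0.614). The high points there were Cre-positive uncrushed replicate 3 and Cre-positive crushed replicate 5, the latter being the lens-high array. When only the Cre-negative arrays were fitted, the same 0.52 passed (limma adjusted p = 0.00226). That fit took its variance from fewer arrays and had its own adjustment over genes, and why the call changed was not tested. Averaged over genotypes the difference was 0.38 (adjusted p = 0.07), which passed without Cre-positive uncrushed replicate 3 (0.45, adjusted p = 0.0104) or without Cre-positive crushed replicate 4 (0.42, adjusted p = 0.0322), and with neighbouring arrays of a slide as a random block (adjusted p = 0.0486).

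PKR is itself an interferon-induced gene. From a chosen list of 20 other such genes, all 18 that were measured had positive crush differences in both genotypes. Of these 18, 4 rose in Cre-negative retinas (median of the list 0.63) and 3 in Cre-positive retinas (median 0.50), against medians of 0.0015 and 0.00027 over all genes. Gbp2, an interferon-induced GTPase, rose by 0.98 (SE 0.15, adjusted p = 0.000829) and 0.86 (SE 0.12, adjusted p = 0.00175), and Psmb8, an immunoproteasome subunit, by 0.70 and 0.50. Rsad2 (viperin) and Gbp3 rose in Cre-negative retinas by 1.01 and 0.95 and Bst2 (tetherin) in Cre-positive retinas by 0.86, each close to the threshold (adjusted p = 0.0435, 0.0443 and 0.0374) and each lost when any 1 of 11 arrays was left out. Without the cornea-high and lens-high arrays, 7 rose without Cre and 2 with it. The list was also higher with Cre, though no gene passed. Cre effects were positive for 17 of 18 in uncrushed (median 0.27) and 18 of 18 in crushed retinas (median 0.21). Markers of microglia and macrophages moved alongside: 4 of 10 rose in Cre-negative and 9 of 10 in Cre-positive retinas, and their mean deviation ran from -0.36 to -0.32 on Cre-negative uncrushed, 0.08 to 0.19 on Cre-negative crushed, -0.33 to -0.12 on Cre-positive uncrushed and 0.12 to 0.77 on Cre-positive crushed arrays. All 10 of these markers, Csf1r and Cx3cr1 included, were above background on every array, and their part in the Eif2ak2 values was not tested. In whole tissue, more cells of a type and more RNA per cell cannot be told apart.

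Eif2ak1 and Eif2ak4 passed in no contrast. Eif2ak1 lay between -1.38 and -1.22 in Cre-negative uncrushed and between -1.31 and -1.09 in Cre-negative crushed retinas, with a difference of 0.10 (95% interval -0.05 to 0.24, adjusted p = 0.611). In Cre-positive retinas it ran from -1.40 to -1.17 uncrushed and -1.36 to -1.20 crushed, which overlap, and the difference was -0.03 (95% interval -0.15 to 0.09, adjusted p = 0.919). Eif2ak4 read 0.35, 0.35 and 0.32 in Cre-negative crushed retinas against 0.33, 0.55, 0.47 and 0.32 in uncrushed ones, which overlap. It read 0.47, 0.23, 0.38, 0.10 and 0.39 in Cre-positive uncrushed and 0.34, 0.50, 0.51, 0.30 and 0.43 in Cre-positive crushed retinas. Its differences had opposite signs in the 2 genotypes, -0.08 (95% interval -0.26 to 0.10) and 0.10 (95% interval -0.04 to 0.25), and neither these nor the difference between them (0.18, adjusted p = 0.697) passed. All 4 of these crush intervals lie between -0.26 and 0.25.

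Of the phosphatase subunits, Ppp1r15a, the stress-inducible one, separated the Cre-negative groups without passing the test. Uncrushed arrays read -0.78, -0.68, -0.85 and -0.76 and crushed arrays -0.49, -0.47 and -0.56, all higher, as for 8.8% of all genes (6.61% in the other direction). The difference was 0.26 (SE 0.08, unadjusted p = 0.00428, adjusted p = 0.114). In Cre-positive retinas the values were -0.61, -0.90, -0.65, -0.83 and -0.81 before and -0.69, -0.73, -0.48, -0.77 and -0.57 after crush, which overlap, with a difference of 0.11 (SE 0.07, adjusted p = 0.621). The averaged response was 0.19 (SE 0.05, adjusted p = 0.0557), just short of the threshold. It passed without Cre-positive uncrushed replicate 1 (adjusted p = 0.0265), without Cre-positive uncrushed replicate 3 (0.0438) and without Cre-positive crushed replicate 4 (0.0337), and with neighbouring arrays as a random block (0.0359), and array weights brought the Cre-negative difference past it (0.27, adjusted p = 0.0216).

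Ppp1r15b, the constitutive subunit, had the dimmest probe, at 121 to 166 Cy5 units over the grouped arrays, where the correction offset holds ratios toward 0. It read -1.66, -1.49, -1.36 and -1.58 in Cre-negative uncrushed and -1.40, -1.32 and -1.08 in Cre-negative crushed retinas, with 1 uncrushed array inside the crushed range. Cre-positive arrays ran from -1.57 to -1.30 uncrushed and -1.47 to -1.30 crushed. The difference was 0.26 (SE 0.08, adjusted p = 0.148) there and 0.04 (SE 0.07, adjusted p = 0.902) in Cre-positive retinas, and that between the responses was -0.22 (95% interval -0.45 to 0.01, adjusted p = 0.608). With no background subtraction the Cre-negative difference was 0.32 and passed (adjusted p = 0.0192), as it did with the disagreeing array counted as crushed (0.30, adjusted p = 0.0459). The catalytic partners of these subunits, Ppp1ca, Ppp1cb and Ppp1cc, had Cre-negative crush differences of -0.08, 0.05 and -0.07 and none passed.

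On its brighter probe, the one used for the gene, the substrate Eif2s1 had the narrowest range of the 8 genes over the 17 arrays, -1.34 to -1.15. This probe read -1.28, -1.29, -1.20 and -1.28 in Cre-negative uncrushed, -1.21, -1.15 and -1.15 in Cre-negative crushed, -1.24, -1.26, -1.26, -1.19 and -1.22 in Cre-positive uncrushed and -1.25, -1.22, -1.34, -1.28 and -1.22 in Cre-positive crushed retinas. On it all crushed Cre-positive arrays were below all crushed Cre-negative arrays, as for 4.39% of all genes (5.86% in the other direction), with a difference of -0.09 (SE 0.05, adjusted p = 0.374). The crush difference was 0.09 (95% interval -0.01 to 0.20, adjusted p = 0.421) without Cre and -0.03 (95% interval -0.11 to 0.05, adjusted p = 0.846) with it. The second, dimmer probe gave -0.07 (adjusted p = 0.904) and -0.05 (adjusted p = 0.93), so the probes differ in sign in Cre-negative retinas with no call on either. The dimmer probe ranged more widely, from -2.97 to -2.31, and its crushed Cre-positive and Cre-negative arrays overlapped.

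In the eIF2 complex, Eif2s2, the beta subunit of eIF2, read -1.32, -1.34, -1.29 and -1.35 in Cre-negative uncrushed and -0.89, -0.83 and -0.86 in Cre-negative crushed retinas, a rise of 0.46 (SE 0.05, adjusted p = 2.15e-05). In Cre-positive retinas the difference was 0.15 (SE 0.04, adjusted p = 0.148), and crushed Cre-positive retinas were lower than crushed Cre-negative ones, a Cre effect of -0.36 (SE 0.05, adjusted p = 0.000333). The test of the difference between the responses gave -0.31 (adjusted p = 0.0521). Eif2s2 was the only one of the 12 genes of the eIF2 and eIF2B list that rose in Cre-negative retinas, and none fell (median 0.03). The X-linked gamma subunit Eif2s3x differed by 0.22 (adjusted p = 0.758). Its Y-linked copy Eif2s3y was above background on 9 of the 17 arrays, from 1 of 3 Cre-negative crushed to 3 of 5 in each Cre-positive group, so each group held retinas with and without Y-linked signal, and its crush difference of -1.05 had an SE of 2.38.

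**Figure D2:**
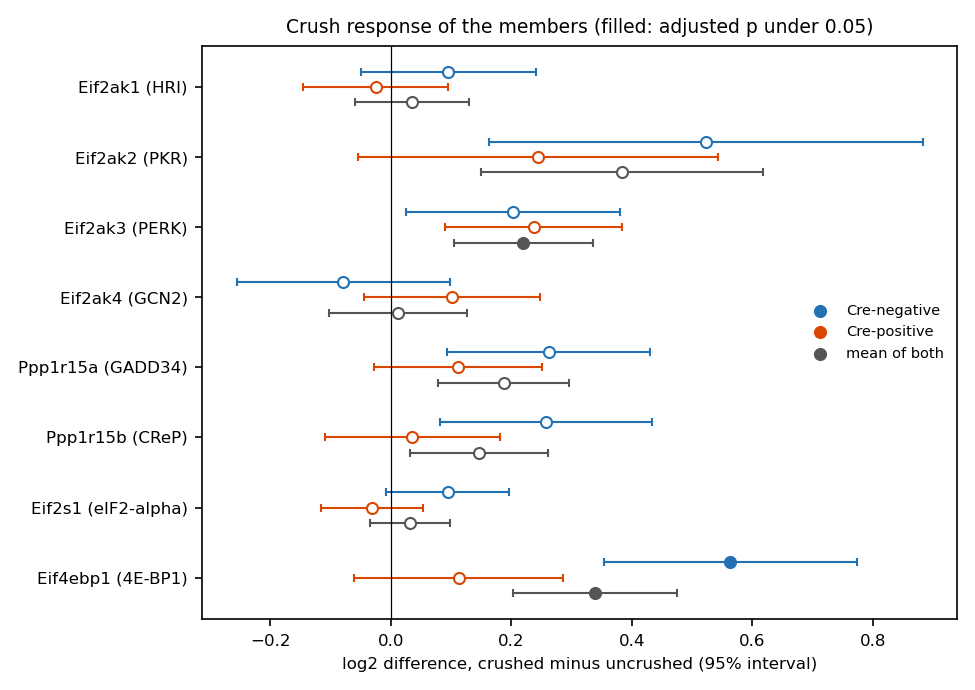
Log2 difference, crushed minus uncrushed, for each gene in Cre-negative retinas, in Cre-positive retinas and averaged over both, with 95% intervals; filled points have adjusted p under 0.05. Filled points are Eif4ebp1 in Cre-negative retinas and on average, and Eif2ak3 on average.

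Eif4ebp1, which restrains cap-dependent initiation and is among the genes ATF4 can induce, gave the one call in a single genotype. Its probe is far weaker in retina than in the reference RNA, so its ratios are low: -5.61, -5.86, -5.60 and -5.85 in Cre-negative uncrushed and -5.11, -5.07 and -5.32 in Cre-negative crushed retinas. Every crushed array was above every uncrushed one, as for 8.8% of all genes (6.61% in the other direction). The rise was 0.56 (SE 0.10, 95% interval 0.35 to 0.77, adjusted p = 0.00303). In Cre-positive retinas the values were -5.86, -5.50, -5.61, -5.36 and -5.64 uncrushed and -5.41, -5.49, -5.59, -5.49 and -5.43 crushed, with a difference of 0.11 (SE 0.08, 95% interval -0.06 to 0.29, adjusted p = 0.704). These groups overlapped, and every crushed array lay inside the uncrushed range. All 5 Cre-positive crushed arrays were below all 3 Cre-negative crushed arrays (4.39% of all genes), a Cre effect of -0.32 (SE 0.10, unadjusted p = 0.00393, adjusted p = 0.13). The difference between the responses was -0.45 (SE 0.13, unadjusted p = 0.00273, adjusted p = 0.242), so over all genes neither measure passed.

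On the 3 slides that carried both Cre-negative groups, Eif4ebp1 differed by 0.54, 0.74 and 0.53, each a single crushed array against a single uncrushed one. Because the groups did not overlap, these differences could only be positive, so their sign is no further check. With slide as a block the Cre-negative rise was 0.57 (adjusted p = 0.00535). Raw Cy5 signal went from 747.5 to 930 units on uncrushed to 1023 to 1122 units on crushed Cre-negative arrays, against a local background of 67 to 82.5 units over the 17 arrays, while Cy3 signal stayed between 22602 and 24590.5 units on these arrays. With Cy5 alone the rise was 0.58 (adjusted p = 0.00213). The 50 genes with a mean ratio of -5 or less had a median Cre-negative crush difference of 0.16 and a 90th percentile of 0.47, and 2 of them (4%) rose. Their median was -0.02 in Cre-positive retinas and -0.15 for the difference between the responses, which was -0.45 for Eif4ebp1. The part of this general shift in the Eif4ebp1 difference between genotypes was not tested. When a linear trend of each array's deviations on the genes' mean ratio was removed, a step added after the values were seen, Eif4ebp1 rose by 0.38 (adjusted p = 0.0208). With the disagreeing array counted as uncrushed the difference was 0.44 and no longer passed (adjusted p = 0.195), and with it counted as crushed it was 0.58 (adjusted p = 0.000594). The ganglion cell markers of that array averaged -0.76, below every grouped array. Also, with scanner-processed signals the Cre effect on Eif4ebp1 in crushed retinas passed (-0.39, adjusted p = 0.0408).

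Retinal ganglion cell markers moved in the same contrast as Eif4ebp1: 8 of 11 fell in Cre-negative and 3 of 11 in Cre-positive retinas. Their mean deviation was 0.07 to 0.19 on Cre-negative uncrushed, -0.71 to -0.62 on Cre-negative crushed, 0.20 to 0.33 on Cre-positive uncrushed and -0.03 to 0.12 on Cre-positive crushed arrays. Their part in the values of the 8 genes was not tested. The genes most like Eif4ebp1 over the 17 arrays, among 14587 compared, were Flnc (r = 0.94), Tmem43 (r = 0.91) and Recql4 (r = 0.90), where r is Pearson's and the arrays share groups, slides and reference. They were chosen for their likeness over these arrays, so their own differences are no independent evidence. Their Cre-negative crush differences were 0.27, 0.28 and 0.33 (adjusted p = 0.0194, 0.0136 and 0.00955), though leaving out Cre-negative crushed replicate 2 ended the call for all 3 (0.0916, 0.0898 and 0.0585). All 3 had mean ratios below 0 as well (-3.76, -1.72 and -3.12), and with the trend on mean ratio removed none of them passed (adjusted p = 0.254, 0.0538 and 0.0792). Of the paralogues of Eif4ebp1, neither passed: Eif4ebp2 differed by 0.15 (adjusted p = 0.746) and Eif4ebp3 by -0.04 (adjusted p = 0.926).

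**Figure D3:**
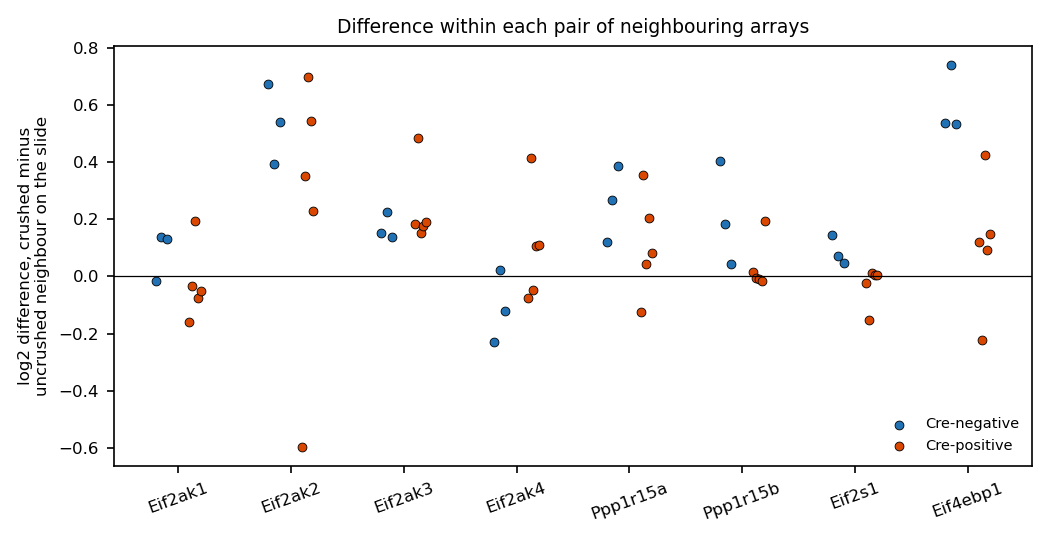
Log2 difference of the crushed minus the uncrushed array within each of 8 pairs of neighbouring arrays on a slide, 3 Cre-negative and 5 Cre-positive, for each gene. Eif2ak3 lies above 0 in all 8 pairs and Eif4ebp1 in all 3 Cre-negative and 4 of 5 Cre-positive pairs.

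Neighbouring positions on a slide held 1 crushed and 1 uncrushed array of the same genotype in 8 cases. The 3 Cre-negative pairs are the within-slide differences themselves, as is the Cre-positive pair on each slide with a single one. They are therefore not a further set of values. For Eif2ak2, Ppp1r15a and Eif4ebp1 the Cre-negative groups did not overlap, so the sign in those pairs was fixed. For Eif2ak3 only 1 uncrushed array per genotype reached into the crushed range, so most of its signs were fixed too. The share of all genes higher in every pair was not computed. In these pairs Eif2ak3 was higher after crush in 3 of 3 Cre-negative (0.14 to 0.22) and 5 of 5 Cre-positive pairs (0.15 to 0.48). Ppp1r15a was higher in 3 of 3 (0.12 to 0.39) and 4 of 5 (-0.12 to 0.36), Eif2ak2 in 3 of 3 (0.39 to 0.67) and 4 of 5 (-0.60 to 0.70), and Eif4ebp1 in 3 of 3 (0.53 to 0.74) and 4 of 5 (-0.22 to 0.43). Eif2ak1 was higher in 2 of 3 and 1 of 5, Eif2ak4 in 1 of 3 and 3 of 5, Ppp1r15b in 3 of 3 and 2 of 5, and Eif2s1 in 3 of 3 and 3 of 5. Y-linked Eif2s3y was on the same side of background in both arrays of all 8 pairs. The labels do not state that neighbours are eyes of 1 animal, and the tests above treat all arrays as separate.

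In uncrushed retinas none of the 8 genes passed between Cre-positive and Cre-negative animals: differences ran from -0.10 for Eif2ak4 to 0.26 for Eif2ak2, all with limma adjusted p of 0.891 or more, and in this contrast 0.0118% of all genes passed, all higher, while 1413 genes and none of the 8 were under an unadjusted p of 0.05. Its groups did not overlap for 1.29% of genes in the higher and 0.686% in the lower direction, and for none of the 8. In crushed retinas 1.18% of all genes passed (0.623% higher, 0.556% lower) and none of the 8, with Eif4ebp1 at -0.32 the only one under an unadjusted p of 0.05, as were 13.9% of all genes. None of the 8 passed in the difference of the crush responses either, where 0.418% of all genes did (0.134% higher, 0.284% lower).

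Downstream of eIF2-alpha, in the list of ATF4 outputs, 15 of 22 measured genes rose in Cre-negative retinas (median 0.66, against 0.0015 over all genes) and 2 of 22 in Cre-positive retinas (median 0.13), and none fell in either. Atf4 itself rose by 0.63 (SE 0.13, adjusted p = 0.011) without Cre and differed by 0.21 (adjusted p = 0.555) with it, and Ddit3 (CHOP) rose by 0.78 and differed by 0.09. The Atf4 rise was lost without Cre-negative crushed replicate 3 (adjusted p = 0.0831). Chac1, a glutathione-degrading enzyme, differed most between the genotypes: it rose by 2.51 (SE 0.14) in Cre-negative retinas, the difference in Cre-positive retinas was 0.49 (adjusted p = 0.0539), and the gap between responses was -2.02 (adjusted p = 4.49e-06). The responses differed, being smaller with Cre, in 9 of the 22. Without the cornea-high and lens-high arrays these counts were 15, 3 and 9.

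Among 15 partners of the kinases and phosphatases only Hspa5 (BiP), the chaperone that holds PERK inactive, rose in Cre-negative retinas, by 0.32 (SE 0.08, adjusted p = 0.0295), and crushed Cre-positive retinas were below crushed Cre-negative ones, a Cre effect of -0.31 (adjusted p = 0.044). The Hspa5 rise was lost without Cre-negative uncrushed replicate 1, 2 or 3 or Cre-negative crushed replicate 1 or 2 (adjusted p 0.0535 to 0.199). Dnajc3 (P58IPK), an inhibitor of PERK and PKR, differed by 0.21 (adjusted p = 0.264) and Gcn1, the activator of GCN2, by -0.06 (adjusted p = 0.74). None of the 15 cap-binding and 4E-BP genes rose or fell in either genotype (medians -0.01 and 0.01), with Eif4e3 closest at 0.23 (adjusted p = 0.196). No gene of the partner list or of the eIF2 and eIF2B list rose or fell in Cre-positive retinas.

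**Figure D4:**
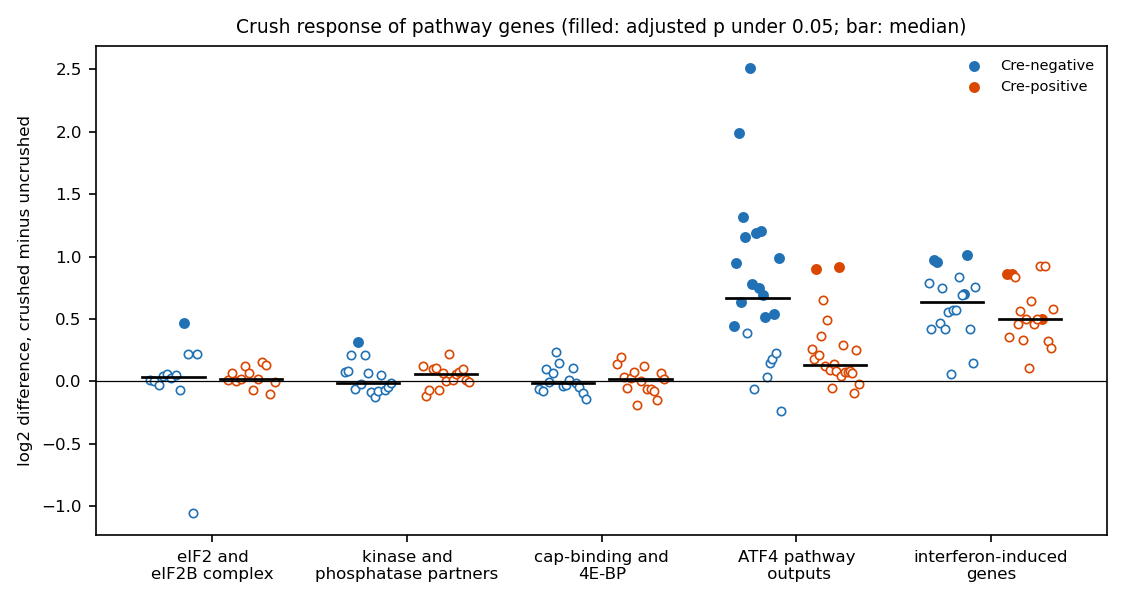
Log2 difference, crushed minus uncrushed, of every measured gene in 5 pathway lists, in Cre-negative and Cre-positive retinas, with list medians as bars and filled points for adjusted p under 0.05. The ATF4 outputs reach 2.51 in Cre-negative retinas, and the lowest open point, at -1.05, is Y-linked Eif2s3y, which was above background on 9 of the 17 arrays.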

How the data were processed

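The deposited scanner files hold spot and local background intensity in both dyes and, per the file headers, come from Agilent Feature Extraction 10.7.3.1, which also wrote processed signals and a log10 ratio. The values that the authors deposited for each probe and array were taken as log2 ratios because their slopes with those computed here were 1 to 1.021. The correlation was r of 0.9994 or more, which alone does not give the base. Per the submitters' processing notes limma was used, with settings not given in the sources used here.

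Spot medians were corrected with limma 3.58.1 in R 4.3.3 by normexp with an offset of 50 and loess within arrays, and flagged spots were left out. The brightest probe stood for a gene, and probes above Cy5 background on at least 3 of 17 arrays were kept, which left 25374 genes. A mean per group was fitted by limma with 13 residual degrees of freedom, and p-values were adjusted by Benjamini-Hochberg over all genes of a contrast, two-sided. The offset holds dim probes toward 0, and the number of arrays limits precision. The script was tested on simulated data. Named genes were the members, their complex partners, and up to 4 genes of each pathway list with the smallest adjusted p in Cre-negative and up to 2 more in Cre-positive retinas, Atf4, Ddit3, and the 3 genes most correlated with Eif4ebp1. None were taken for Eif2ak3, which was called only in the averaged contrast. The crush effect averaged over genotypes was added after values were seen. Lists of ganglion cell, rod, Müller glia, microglia, lens, pigment epithelium, cornea and red blood cell markers were used as checks. The members and lists were chosen with earlier results of these data known. Aars1 and Rigi are on the array under older symbols, Mx1 and Mx2 were not measured, and Fgf21 was below background.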

Additional observations from a re-analysis of the deposited data

Results flagged for a closer look

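The array whose labels disagree on crush lay above all 4 Cre-negative uncrushed arrays for 5 of the 8 genes. The share of all genes for which it did so was not computed, so the count alone does not bear on crush. Its log2 ratio was -0.98 for Eif2ak1 (highest uncrushed array -1.22), -1.74 for Eif2ak2 (-1.97), 1.27 for Eif2ak3 (1.25), -1.10 for Ppp1r15b (-1.36) and -5.11 for Eif4ebp1 (-5.60). For Eif2ak2 it was also below all 3 Cre-negative crushed arrays. Its ganglion cell markers averaged -0.76, against -0.71 to -0.62 on Cre-negative crushed and 0.07 to 0.19 on Cre-negative uncrushed arrays. Its microglia markers averaged 0.44, against 0.08 to 0.19 and -0.36 to -0.32. Eif2s2 read -0.92 on it, against -0.89 to -0.83 and -1.35 to -1.29. On all 3 measures it was on the crushed side of every Cre-negative uncrushed array. Lens markers averaged 0.97 on it, against -0.27 to 0.36 on the 7 Cre-negative arrays, and rod markers -0.22, against -0.03 to 0.04. It stayed in no group because its labels disagree and groups were taken from labels alone. In 27 sets of 4 or 5 arrays of a group, no array stood apart from the rest for any of the 9 probes.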

How the results depend on the processing

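Over 38 alternative settings, the 48 differences of the 8 genes gave 1792 values: 1761 stayed on the same side of the threshold, 17 gained and 14 lost a call, none reversed while called, and 46 changed sign with no call on either side. Many of these settings could not move a difference. Scaling of average intensities leaves ratios as they are, and probe averaging leaves genes with 1 probe unchanged. Likewise, leaving out an array leaves the other genotype's crush difference unchanged. The count of 1761 is therefore no measure of robustness. The rise of Eif4ebp1 in Cre-negative retinas ranged from 0.38 to 0.64 and lost its call only with the disagreeing array as uncrushed (0.44, adjusted p = 0.195). Leaving out 1 array gave 0.51 to 0.64. With that array as crushed it was 0.58 (adjusted p = 0.000594). The averaged Cre effect on Map3k12 passed in every setting that estimated it. Fits of only the groups of a contrast, or with neighbouring arrays as a fixed block, did not estimate it.

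The number of the 8 genes called after crush in Cre-negative retinas, 1 as reported, became 2 with no background subtraction, 2 with the disagreeing array as crushed, 0 with it as uncrushed, 3 with array weights, 2 with only those groups fitted, and 1 to 1 on leaving out an array. For the Cre effect in crushed retinas it went from 0 to 1 with scanner-processed signals. For the averaged crush response it went from 2 to 1 with processed signals, with Cy5 alone or without the cornea-high and lens-high arrays, to 0 with the disagreeing array as uncrushed, to 4 with neighbouring arrays as a random block (Eif2ak2 and Ppp1r15a gained), and to between 1 and 4 on leaving out an array.

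Over all genes, processed signals gave 307 calls after crush in Cre-negative retinas (545 as reported), 93 in Cre-positive retinas (191), 70 for the difference (106) and 589 for the averaged response (905). The disagreeing array as uncrushed gave 73, 10, 0 and 276, and 115 for the Cre effect in crushed retinas (299). Array weights gave 1249, 167 for the difference and 579 for the Cre effect in crushed retinas, and slide as a fixed block gave 145 for the last. Cre-positive crush calls were 52 with only those groups fitted, 120 without the cornea-high and lens-high arrays and 314 with neighbouring arrays as a random block. The 3 calls of the Cre effect in uncrushed retinas became 0 with Cy5 above background required on all 17 arrays, and 1 with offset 16, slide as a fixed block, only those groups, without the cornea-high and lens-high arrays, or the ratio trend removed. Leaving out 1 array gave 330 (Cre-negative crushed replicate 1) to 679, 110 (Cre-positive uncrushed replicate 2) to 230, 81 to 121, 1 to 3, 167 (Cre-negative crushed replicate 2) to 325, and 624 to 1014 for the averaged response. The cause of these changes was not tested.

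By replicate number, no paired analysis was possible because the numbers were given in accession order. With neighbouring arrays taken as pairs, chosen after seeing the data, Eif4ebp1 rose by 0.60 as a fixed block (adjusted p = 0.0149); deviations within the 8 pairs correlated at -0.14 to 0.44. Among 42 other named genes, 81 of 9402 values gained and 159 lost a call, and none reversed. Of the probes used for the 8 genes, that of Ppp1r15b had the lowest Cy5 signal, 121 to 166 units.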

Other observations

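In limma's fit, no marker of rods, lens, cornea, iris and ciliary body, pigment epithelium or red blood cells passed in any of the 6 contrasts. Pigment epithelium content was still uneven: all 8 of its markers had positive Cre effects in crushed retinas (median 0.67). Their mean deviation was -0.59 to -0.20 on Cre-negative crushed and -0.41 to 0.68 on Cre-positive crushed arrays. The part of these cells in the values of the 8 genes was not tested. Of 8 Müller glia markers, 1 rose after crush without Cre, and with Cre 1 rose and 1 fell. Rod markers had a median crush difference of 0.004 without Cre and -0.085 with it.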
